A study of Mus musculus with 6 samples.

Results

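A set of 10 immediate-early genes outside the AP-1 family were followed in mouse induced pluripotent stem cells (iPSCs) with and without serum response factor (SRF). They are the zinc finger factors Egr1, Egr2, Egr3 and Egr4, the orphan nuclear receptors Nr4a1 and Nr4a2, the activity-regulated gene Arc, and Ier2, Ier3 and Ier5. The genes were chosen by name, with earlier results of these data known. Each of the 10 names matched 1 of the 24421 gene entries of the count table. All 10 also passed the filter on low counts, which left 14778 genes. The study made RNA-seq libraries from 3 replicates of SRFΔ/Δ iPSCs, called SRF KO here, and 3 replicates of SRFf/f iPSCs, called WT here, which carry the floxed allele in place of an unmodified one. Both genotypes grew in medium with serum, and no stimulation, time course or serum withdrawal is named, so that the values are levels in growing cultures. The labels name neither the clones behind the replicates nor a feeder layer, so the p-values measure the spread between these samples, which may be technical. In bulk RNA, fewer cells that express a gene and less RNA per cell cannot be told apart.

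Immediate-early genes are transcribed within minutes of a stimulus without new protein synthesis, and their RNAs decay fast. At many of them SRF sits on a CArG box and recruits ternary complex factors (Elk1, Elk3 and Elk4), which the mitogen-activated kinase ERK phosphorylates. Other immediate-early genes, the NR4A genes among them, are also switched on through the cyclic AMP response element (CRE) and its factor CREB, or through MEF2 factors. In mouse pluripotent cells the ERK cascade is driven by FGF signalling and by serum, and it favours exit from the naive state.

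Promoter sequence was looked at first, because SRF acts through the CArG box and CREB through the CRE. RefSeq windows (GRCm38.p6) were found for 6 of the 10 genes, Egr2, Egr4, Nr4a1, Nr4a2, Ier3 and Ier5, and not for Egr1, Egr3, Arc and Ier2. The 250 bases before the start site were searched. The CArG box was taken as a C pair, 6 bases that are all A or T, and a G pair, and a CArG-like match as the same with 5 of the 6 bases A or T. The CRE half-site was TGACG on either strand, which the full site TGACGTCA contains. The windows of 4 genes are shown, in which capitals mark CArG boxes, CArG-like matches and CRE half-sites (TGACG, or CGTCA on the other strand). They were picked because the first gene fell, the second did not pass the test and the other two rose.
Egr2, chr10:67537619-67537868, plus strand: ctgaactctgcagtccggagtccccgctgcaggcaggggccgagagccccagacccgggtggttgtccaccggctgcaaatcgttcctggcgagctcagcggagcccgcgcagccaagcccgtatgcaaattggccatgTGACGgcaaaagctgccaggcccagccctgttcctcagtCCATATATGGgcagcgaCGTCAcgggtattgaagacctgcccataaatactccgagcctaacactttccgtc
Nr4a1, chr15:101266596-101266845, plus strand: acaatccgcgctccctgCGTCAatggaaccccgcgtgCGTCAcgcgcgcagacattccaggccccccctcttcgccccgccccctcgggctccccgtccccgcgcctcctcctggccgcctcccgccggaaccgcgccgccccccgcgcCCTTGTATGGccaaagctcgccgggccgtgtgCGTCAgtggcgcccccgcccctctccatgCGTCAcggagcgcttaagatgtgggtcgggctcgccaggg
Nr4a2, chr2:57124004-57124253, minus strand: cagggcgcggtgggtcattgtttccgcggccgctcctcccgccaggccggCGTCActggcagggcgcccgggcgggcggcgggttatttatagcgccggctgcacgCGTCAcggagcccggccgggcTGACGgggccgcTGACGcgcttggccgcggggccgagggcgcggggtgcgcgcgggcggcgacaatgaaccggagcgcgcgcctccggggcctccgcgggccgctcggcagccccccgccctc
Ier3, chr17:35821463-35821683, plus strand: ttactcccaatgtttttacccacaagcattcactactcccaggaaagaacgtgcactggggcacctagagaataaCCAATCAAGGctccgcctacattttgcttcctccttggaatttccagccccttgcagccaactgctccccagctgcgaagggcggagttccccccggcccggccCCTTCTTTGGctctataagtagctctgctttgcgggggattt
The Egr2 window held 1 CArG box, from 72 to 63 bases before the start, and 2 CRE half-sites. The Nr4a1 window held 1 CArG-like match, from 101 to 92 bases before the start, and 4 CRE half-sites. The Nr4a2 window held 4 CRE half-sites and no CArG or CArG-like match. The Ier3 window, shown up to the first annotated exon, held 2 CArG-like matches and no CRE half-site. Of the windows not shown, that of Egr4 held 1 CArG-like match and 2 CRE half-sites, and that of Ier5 held neither motif. The table holds 5 windows for Egr2. The one shown lies between annotated exons, before the start of a coding transcript, and a window 303 bases upstream of it held another CArG box and 1 CArG-like match. The window at the start of the annotated gene held no CArG box, CArG-like match or CRE half-site. The rest overlap the one shown and held the same CArG box and CRE half-sites. The Nr4a1 window is intronic to longer annotated transcripts. Among 32841 windows of this length in the table, 1.47% held a CArG box, 7.24% a CArG-like match, 17.8% a CRE half-site and 1.55% the full TGACGTCA site, which none of the 6 genes' windows held. A match describes letters in a window and does not show that a factor binds there.

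The libraries held between 26321602 and 36680156 counts. Srf itself had between 84 and 131 counts in SRF KO and between 765 and 1326 in WT, so that the labels and the targeted gene point the same way in each library. A noncoding RNA gene is annotated on the opposite strand of Srf, and the use of strand in the counting is not given. WT replicate 2 stood apart most from its group, with a chi-square per degree of freedom of 12.9 and 15.5 against the other WT libraries, where the third WT pair gave 3.80. Without it the same numbers of the 10 genes were called, 4 lower and 3 higher. Defining pluripotency genes were expressed in both groups: Pou5f1 had a mean level of 773 ± 11.3 CPM (counts scaled to a common library size) in SRF KO against 818 ± 52.4 CPM for WT (SD, n = 3). Of 10 pluripotent cell markers, 4 were lower, Nanog by the most at -0.79 on the log2 scale, and 1, Zfp42, was higher at 0.18 (adjusted p 0.0312). The call of Zfp42 was lost on leaving out any 1 of the SRF KO libraries 1 and 2 and the WT libraries 1 and 3. The number called lower was 6 without WT replicate 2, where Pou5f1 was called as well (-0.13, adjusted p 0.0134). Their summed level was 5143 to 5257 CPM in SRF KO and 5990 to 6467 CPM in WT. Other cell types' markers moved with the genotype. All 14 fibroblast markers were higher in SRF KO, with a summed level of 1430 to 1743 CPM against 695 to 804 CPM in WT. All 12 tested extraembryonic endoderm markers were higher as well, with 2313 to 2467 CPM against 198 to 216 CPM, while Afp of that list had at most 3 counts in any library. The part of these cell types in the values of the 10 genes was not tested.

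Across the 10 genes, 4 were lower and 3 higher in SRF KO and 3 did not pass the test (edgeR's quasi-likelihood test, Benjamini-Hochberg adjusted p under 0.05, as for all adjusted p-values here). The background was high: of all 15611 genes and transposable element entries tested, 20.7% were called lower, 20.4% higher and 41.1% in either direction. Egr1 and Egr2 fell strongly, Arc and Ier2 fell less, Nr4a2, Ier3 and Ier5 rose, and Egr3, Egr4 and Nr4a1 were not called. The median log2 fold change was -0.14, against -0.02 over all entries, and the median of its absolute value was 0.45 against 0.20. For 7 of the 10 genes the SRF KO libraries did not overlap the WT libraries, 3 below and 4 above, where 51.4% of all entries did not overlap (26.1% below and 25.3% above). Egr1 and Egr2 were called lower with a log2 fold change of -1 or less, which held for 1.7% of all entries. None of the 10 genes was called higher with a log2 fold change of 1 or more, which held for 5.27%. The summed level of the 10 genes was 253, 236 and 257 CPM in SRF KO replicates 1 to 3 and 491, 404 and 511 CPM in WT replicates 1 to 3. Egr1, the gene with the largest fall, was then left out, a choice made from its values, and no test is given for either sum. Without it the sums were 202, 189 and 203 CPM in SRF KO and 231.5, 182 and 247 CPM in WT. WT replicate 2 was the lowest of the 6 libraries in this sum, as it was for Ier2, the most abundant of the genes left.

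**Figure D1:**
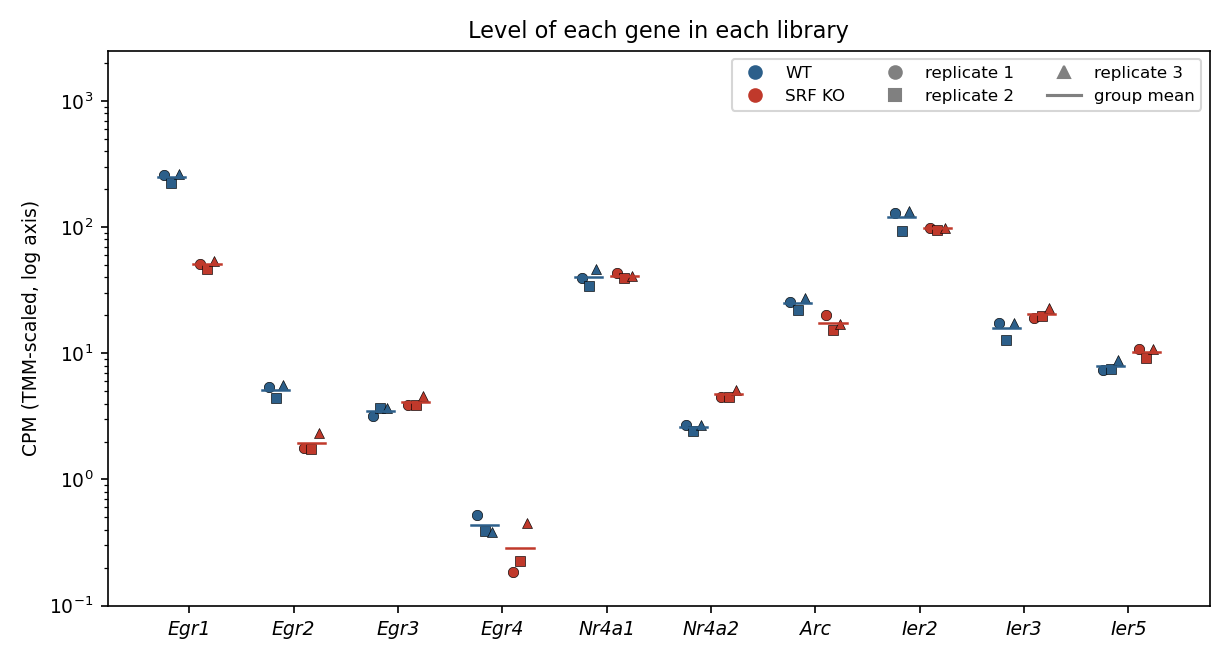
Level of each of the 10 genes in each library, in TMM-scaled CPM on a log axis, with WT in blue, SRF KO in red, marker shape for the replicate number and a line at the group mean. Egr1 and Egr2 are separated widely with SRF KO below, Nr4a2 is separated with SRF KO above, and the Nr4a1 groups overlap.

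**Figure D2:**
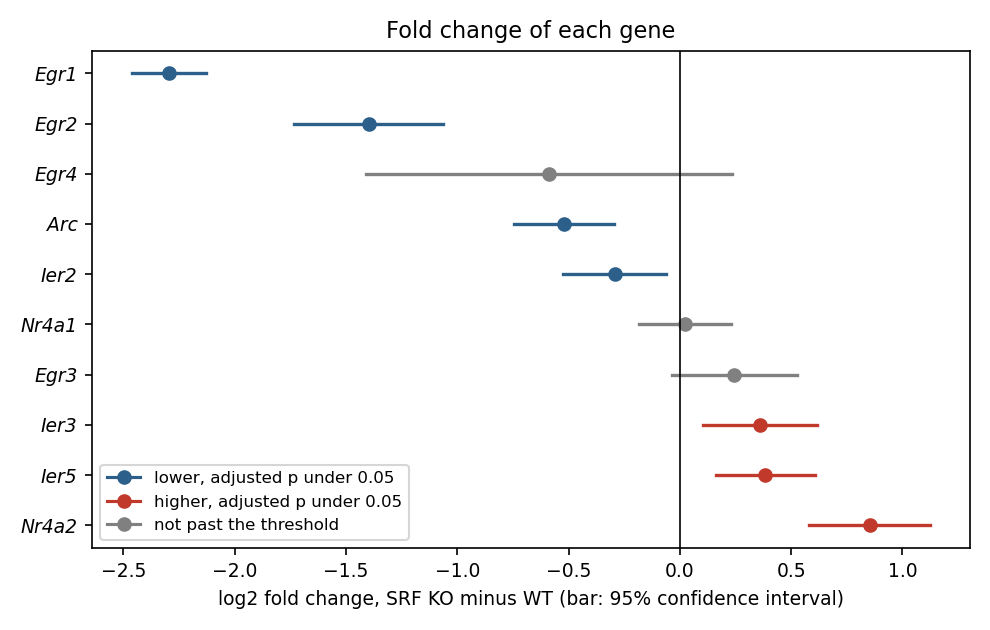
Log2 fold change of SRF KO over WT for each gene, with its 95% confidence interval, ordered from the lowest to the highest. Egr1 is at -2.29 and Nr4a2 at 0.85, and the intervals of Egr3, Egr4 and Nr4a1 include 0.

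Egr1 had the lowest fold change of the 10 genes. It encodes a zinc finger activator of growth and differentiation genes and is a textbook target of SRF with ternary complex factors. The gene lies at chr18:34859823-34864984 on the plus strand (mm10, GENCODE M21), with no other annotated gene over it, as is the case for all 10 genes. It had 51.1, 46.9 and 54.0 CPM in SRF KO replicates 1 to 3 and 259, 222 and 264 CPM in WT replicates 1 to 3. Every SRF KO library was far below every WT library, and replicate 2 was the lowest of each group. SRF KO held 20.4% of the WT mean, a log2 fold change of -2.29 (SE 0.08, 95% confidence interval -2.46 to -2.13, adjusted p 1.15e-09). It ranked 15 from the lowest of 14778 genes. Of all entries tested, 0.179% had a log2 fold change of -2 or less. With at least 1242 counts per library, counting error was at most 2.84%. The fold was between -2.36 and -2.24 over the 14 alternative fits.

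Egr2, known as Krox20 and required for hindbrain patterning and myelination, also fell, from a low level. Its gene lies at chr10:67535475-67542188 on the plus strand. It had 1.78, 1.74 and 2.32 CPM in SRF KO and 5.38, 4.43 and 5.58 CPM in WT, again without overlap. The SRF KO mean was 37.9% of the WT mean, a log2 fold change of -1.40 (SE 0.15, adjusted p 2.56e-05). As few as 46 counts lay behind a library, which is a counting error of 14.7%. Its window above holds the CArG box, beside CRE half-sites. No window was found for the other genes called lower, Egr1, Arc and Ier2. A link between the motif and the fall was not tested.

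The other 2 family members did not pass the test. Egr3, which acts in muscle spindle and immune development, lies at chr14:70077203-70082614 on the plus strand. It had 3.90, 3.93 and 4.60 CPM in SRF KO and 3.18, 3.69 and 3.70 CPM in WT. Each SRF KO library was above each WT library, by a small margin. The log2 fold change was 0.24 (95% confidence interval -0.04 to 0.53, adjusted p 0.151), so that a rise of the size seen for Ier5 and a value near 0 both lie in the interval. Egr4, at chr6:85511121-85513589 on the minus strand, had 5, 6 and 13 counts in SRF KO and 19, 10 and 11 counts in WT. The groups overlapped. Its log2 fold change was -0.59 (95% confidence interval -1.41 to 0.23, adjusted p 0.237). Leaving out SRF KO replicate 3 gave -1.08 and leaving out SRF KO replicate 1 gave -0.36, and neither passed the test. Counting error was 44.7% at 5 counts, and the interval holds both a fall like that of Egr2 and no change.

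The shares of the 4 genes in the EGR family follow from the fold changes above, and are given as a description. Counts were divided by the exon length of each gene (4.48, 3.40, 4.41 and 2.15 kb for Egr1 to Egr4) to compare genes. The family's summed level was 12.9, 12.0 and 14.0 CPM per kb in SRF KO and 60.4, 51.9 and 61.5 CPM per kb in WT, and the SRF KO mean came to 22.4% of that of WT. Egr1 made up 95.7% ± 0.131 of that sum in WT and 87.3% ± 1.12 in SRF KO (SD, n = 3). The Egr3 share was 1.39% ± 0.213 in WT and 7.26% ± 0.341 in SRF KO, and the Egr2 share 2.60% ± 0.0788 and 4.41% ± 0.421. Since Egr1 made up nearly all of the WT sum, its fall raises the other shares by construction: the Egr2 share was higher in SRF KO although Egr2 itself fell. By counts, the order of Egr2 and Egr3 changed, with Egr2 above Egr3 in every WT library and below it in every SRF KO library.

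**Figure D3:**
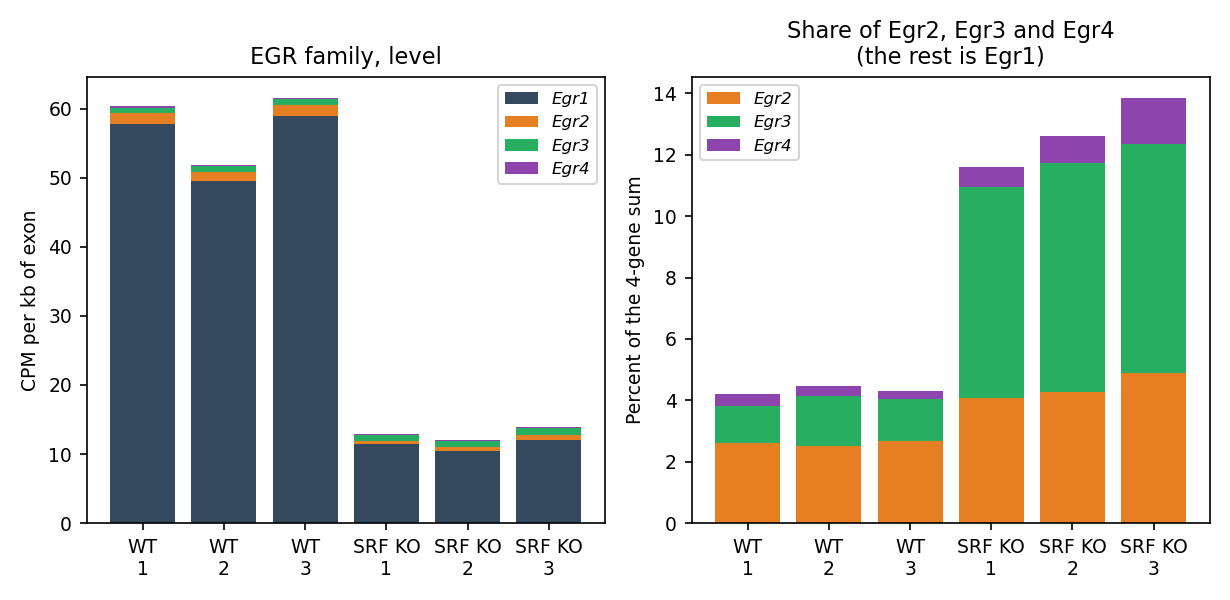
Left, summed level of the 4 EGR genes in each library in CPM per kb of exon, stacked by gene. Right, the percent of that sum taken by Egr2, Egr3 and Egr4, where Egr3 takes 1.19 to 1.62 in WT and 6.87 to 7.47 in SRF KO.

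Neither Nr4a1 nor Nr4a2 was called lower. They encode nuclear receptors without a known natural ligand that act as fast sensors of kinase and cyclic AMP signals. Nr4a1 (Nur77), at chr15:101254269-101274795 on the plus strand, had 43.1, 39.2 and 40.7 CPM in SRF KO and 39.6, 34.4 and 47.0 CPM in WT. The SRF KO values lay inside the WT range. Its log2 fold change was 0.02 (95% confidence interval -0.19 to 0.23, adjusted p 0.872), which bounds the change without showing that there was none. The sign turned without WT replicate 2 (-0.07) and without SRF KO replicate 1 (-0.01), and the value was 0.14 without WT replicate 3.

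Nr4a2 (Nurr1), best known for dopamine neurons, lies at chr2:57106830-57124003 on the minus strand. It had 4.53, 4.53 and 5.12 CPM in SRF KO and 2.71, 2.41 and 2.72 CPM in WT, with no overlap. It rose 1.81-fold, a log2 fold change of 0.85 (SE 0.12, adjusted p 0.00022). The third receptor of the family, Nr4a3 (Nor1), taken from a list of relatives, rose further. It had 55, 42 and 68 counts in SRF KO and 26, 20 and 23 counts in WT, a log2 fold change of 1.39 (SE 0.21, adjusted p 0.000264).

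Arc encodes a capsid-forming protein of synapses that is induced by neuronal activity, and lies at chr15:74669083-74672570 on the minus strand. It had 19.96, 15.3 and 17.04 CPM in SRF KO and 25.4, 22.2 and 27.2 CPM in WT. SRF KO replicate 1 came closest to WT, and the groups did not overlap. Arc fell by 0.52 on the log2 scale (SE 0.10, adjusted p 0.00184), to 69.8% of the WT mean. Neuron markers moved in both directions beside it: 5 of 9 tested were lower and 1 higher, with a summed level of 214 to 221 CPM in SRF KO and 297 to 314 CPM in WT. Grin1, a glutamate receptor subunit, changed by -1.94 and Camk2a, a synaptic kinase, by 0.45 on the log2 scale, and Dcx had at most 3 counts in any library. Their part in the fall of Arc was not tested.

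The 3 IER genes did not move as 1 group, and they share a name rather than a protein family, although Ier2 and Ier5 have related N-terminal parts. Ier2, a nuclear protein of the growth factor response, lies at chr8:84661331-84662852 on the minus strand. It had 98.4, 95.3 and 99.2 CPM in SRF KO and 130, 94.0 and 135 CPM in WT. WT replicates 1 and 3 were above SRF KO, and WT replicate 2 was below all 3 SRF KO libraries. The log2 fold change of -0.29 (SE 0.11, adjusted p 0.0433) passed narrowly. It was -0.43 without WT replicate 2 (adjusted p 3.8e-07), and the call was lost without any 1 of the other 5 libraries, with values between -0.30 and -0.20 and adjusted p between 0.0959 and 0.146.

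Ier3 (IEX-1), a regulator of survival signalling, lies at chr17:35821684-35822923 on the plus strand. It had 19.0, 19.6 and 22.7 CPM in SRF KO and 17.4, 12.7 and 17.4 CPM in WT. The groups did not overlap, but SRF KO replicate 1 lay close to WT replicates 1 and 3. Ier3 rose by a log2 fold change of 0.36 (SE 0.12, adjusted p 0.0275). The call was lost without SRF KO replicate 3 (0.28, adjusted p 0.135), and the value was 0.24 without WT replicate 2, with the call kept. Ier5, which works with heat shock factor HSF1, lies at chr1:155096361-155099636 on the minus strand. It had 10.8, 9.25 and 10.9 CPM in SRF KO and 7.43, 7.54 and 8.78 CPM in WT. Ier5 rose by a log2 fold change of 0.38 (SE 0.10, adjusted p 0.0104), and its call was lost without SRF KO replicate 3 (0.34, adjusted p 0.0534) and without WT replicate 1 (0.34, adjusted p 0.052).

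Ratios between genes do not depend on how libraries are scaled. Described here are 12 pairs within the EGR genes, the NR4A genes with Nr4a3, or the IER genes, a set by name. The pairs were chosen after the values had been seen, so no test is given. The groups were separated in 11 of the 12 pairs, 3 of which hold the low Egr4. The pairs share genes and their ratios follow from the fold changes above, so they are not separate observations. The levels of 51.4% of single entries were separated, and no such share was taken for ratios of other genes. Examples are 1 or 2 pairs of each set. Egr1 counts were 70.5 times those of Egr3 in WT and 12.2 times in SRF KO, a difference of -2.53 in the log2 ratio. The ratio of Egr2 to Egr3 counts went from 1.45 to 0.467. The ratio of Nr4a1 to Nr4a2 counts went from 15.3 to 8.68, and that of Ier2 to Ier3 from 7.52 to 4.79. The groups were separated in each of these 4 pairs. Ier3 and Ier5 had a ratio of 1.98 in SRF KO and 1.99 in WT and were the pair that overlapped, with differences of the log2 ratio between -0.12 and 0.12 when 1 library was left out.

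Levels per kb of exon place the genes over a wide range. In WT the order was Ier2 (78.5 ± 14.6 CPM per kb), Egr1 (55.4 ± 5.12), Ier3 (14.0 ± 2.41), Nr4a1 (11.5 ± 1.80), Arc (8.17 ± 0.827), Ier5 (2.42 ± 0.230), Egr2 (1.51 ± 0.181), Egr3 (0.799 ± 0.0679), Nr4a2 (0.643 ± 0.0431) and Egr4 (0.201 ± 0.0373; SD, n = 3). Ier3 and Nr4a1 overlapped in this order, and the other neighbours did not. In SRF KO Egr1 stood at 11.3 ± 0.791 CPM per kb, below Ier2 (64.1 ± 1.37) and Ier3 (18.1 ± 1.78), and overlapped Nr4a1 (11.7 ± 0.550). Below them came Arc (5.70 ± 0.776), Ier5 (3.15 ± 0.279), Nr4a2 (1.17 ± 0.0830), Egr3 (0.940 ± 0.0895), Egr2 (0.573 ± 0.0947) and Egr4 (0.134 ± 0.0661; SD, n = 3), none of which overlapped its neighbour. Ier2 was thus the most abundant of the 10 genes in both groups, and Egr1 moved from the second place to the fourth.

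Within a genotype, the order of the libraries was alike for many of the genes. WT replicate 2 was the lowest WT library for 7 of the 10 genes, where it was the lowest for 44.7% of all entries. WT replicate 3 was the highest for 9 of them, against 37.6% of all entries, although its lead over another WT library was 0.001 or less on the log2 scale for Egr3 and Ier3. In SRF KO, replicate 3 was the highest for 8 genes, against 32.8% of all entries, and replicate 2 the lowest for 7, against 37.8%. The deviations in WT replicate 2 were largest for Ier2 and Ier3, at -0.33 and -0.30 from the group mean of log2 CPM. Those of Egr1 stayed between -0.16 and 0.09 in all 6 libraries, small beside its fold change.

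**Figure D4:**
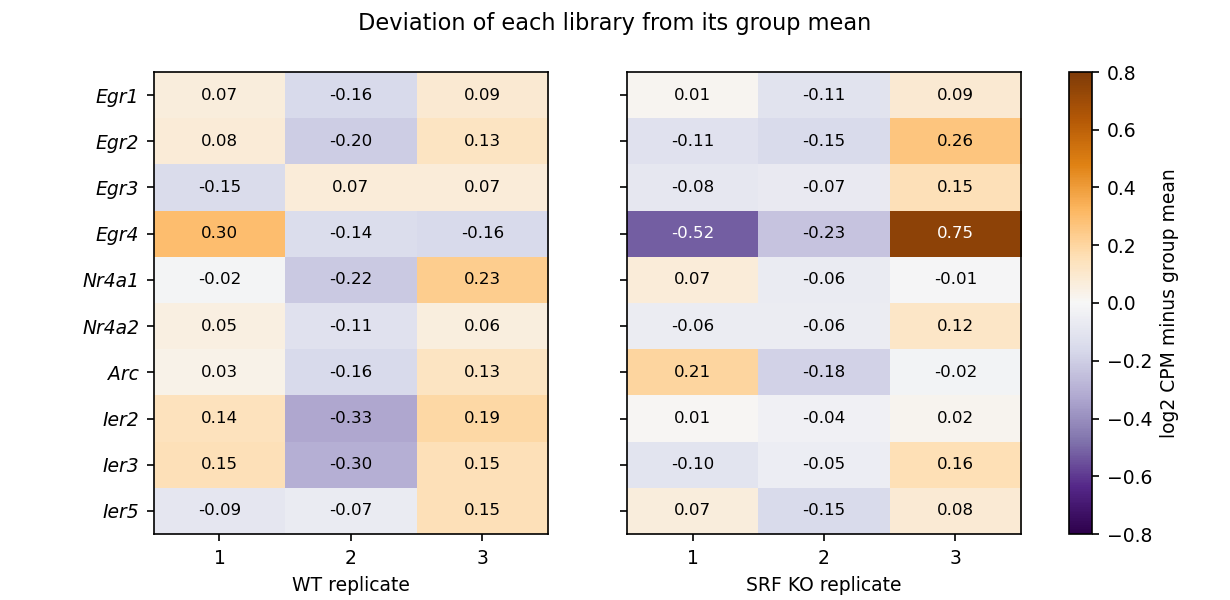
Deviation of log2 CPM of each gene from the mean of its own group, in each WT library (left) and SRF KO library (right), with orange above and purple below. WT replicate 2 is below its group mean for all genes but Egr3, and the widest deviations are those of Egr4, which has 19 counts at most.

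Other immediate-early genes moved in both directions too. The shares to set beside the counts of this list and those below are those of all entries, 20.7% lower and 20.4% higher. Of 45 other immediate-early genes, all tested, 15 were lower, 19 higher and 11 not called, with a median log2 fold change of 0.06 (-0.001 without WT replicate 2, where 19 were lower and 20 higher). The AP-1 factors Fos and Fosb fell by 2.93 and 1.19 on the log2 scale (adjusted p 1.16e-11 and 1.47e-06), and Fos was the only gene of that list with a lower fold change than Egr1. Jun and Klf4, a pluripotency factor as well, fell by 0.85 and 0.52. Myc rose by 1.10, Phlda1, a growth factor-induced inhibitor of survival signals, by 1.39, the kinase gene Plk2 by 0.79 and the pseudokinase gene Trib1 by 0.69 (adjusted p between 1.56e-08 and 1.45e-06). The 4 of 8 AP-1 genes called lower stood beside 3 called higher.

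Among upstream regulators, of 27 tested, 7 were lower, Srf among them at -3.12 (SE 0.13), and 4 were higher, with a median of 0.02. The ternary complex factor Elk3 rose by 0.94 (adjusted p 4.78e-06) and Elk1 fell by 0.30 (adjusted p 0.00193). Elk4 was at 0.20 without a call (adjusted p 0.0621). It gained a call with library totals alone and without WT replicate 1 (0.27, adjusted p 0.0376). The same held with replicate number as a block (0.20, adjusted p 0.0205) and without both replicates numbered 2 (0.19, adjusted p 0.0483). Among 10 genes of the ERK cascade, 3 fell and none rose, where 20.7% of all entries were called lower and 20.4% higher. The largest of these falls was that of Rps6ka2, a kinase below ERK, by 0.48. Of the MEF2 and CREB branches, Mef2a, Mef2c and the CREB coactivator Crtc3 rose by 0.45, 1.05 and 0.86, and the CREB kinase Rps6ka5 fell by 0.43. Creb1 itself was called lower by a small margin, at -0.19 (adjusted p 0.0424). That call was lost by DESeq2 (adjusted p 0.0595), with other scaling, and on leaving out SRF KO library 1 or 3 or WT library 1 or 2. Of the 4 family relatives and EGR corepressors, 2 were higher and none was lower, with a median of 0.20. The EGR corepressor Nab1 rose by 0.28 (adjusted p 0.0207), a call lost on leaving out WT replicate 1 or either of the SRF KO libraries 1 and 3, and Nab2, whose transcription EGR factors drive, was at -0.02 (adjusted p 0.929), with a sign that turned on leaving out single libraries.

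Genes that ERK signalling induces, among them its own brakes and the ETS factors Etv4 and Etv5, moved in both directions. Of the 12 on this list, called ERK feedback genes, 6 were higher and 3 lower, with a median of 0.20. Dusp4, a nuclear ERK phosphatase, rose by 0.96, the ETS factor Etv4 by 0.66, and the inhibitors Spry4 and Spry2 by 0.49 and 0.34. Etv5, Spry1 and Dusp5 fell by 0.53, 0.37 and 0.29, and Dusp6 was at 0.10 without a call (adjusted p 0.2). The call of Dusp5 was lost on leaving out any 1 of the SRF KO libraries 1 and 2 and the WT libraries 1 and 3, by DESeq2 and with library totals alone. Of the heat shock and stress genes, 6 of 17 were higher and 2 lower, with a median of 0.10. Of the 6 genes of the integrated stress response, 4 were higher, Ddit4 was lower and Ddit3 was not called (-0.18, adjusted p 0.0901). Chac1, a glutathione-degrading enzyme, rose by 0.90, the pseudokinase gene Trib3 by 0.58 and the transcription factor gene Atf4 by 0.34. Hmox1, the haem oxygenase of the oxidative response, rose by 0.50. Of the 10 heat shock genes, the chaperone gene Hsp90aa1 fell by 0.41, the cochaperone gene Bag3 rose by 0.41 and the others were not called. Ddit4, an inhibitor of mTOR signalling, fell by 0.24 (adjusted p 0.0232), a call lost on leaving out any 1 library but WT replicate 2.

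**Figure D5:**
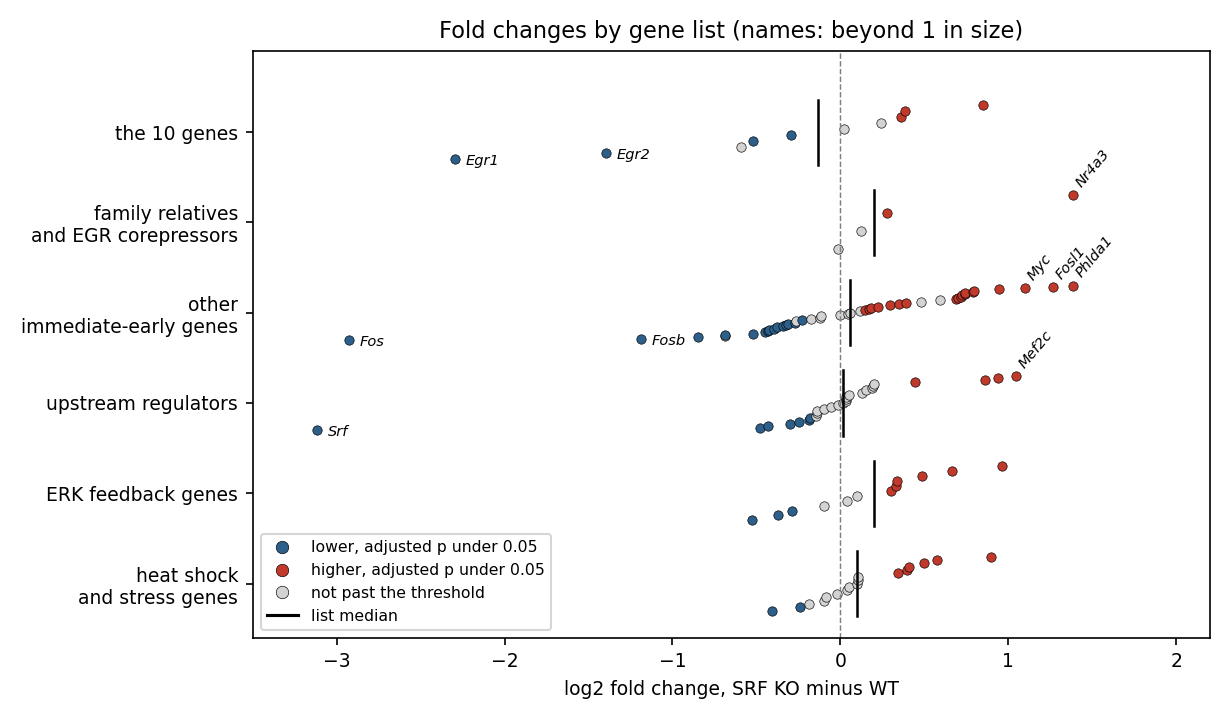
Log2 fold change of SRF KO over WT of each tested gene of 6 lists, 1 row a list, with blue for lower, red for higher, grey for genes not past the threshold and a black bar at the list median. Only Fos and Srf lie below Egr1 on these lists, and the medians lie between -0.14 and 0.20.

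To find genes with a like pattern, log2 CPM was centred for each gene on its mean over the 6 libraries, and 12344 genes with a mean of at least 50 counts were ranked by their root mean square difference from each called gene. The measure is dominated by the difference between the groups. Closest to Egr1 were the microRNA gene entry Mir6935 (0.09), Grb10, an imprinted growth inhibitor (0.10), the lactate dehydrogenase subunit Ldhb (0.13), Fxyd6 (0.15) and Arl14epl (0.16), with log2 fold changes between -2.47 and -2.14. Closest to Egr2 were Mobp, Sh2d5 and Tjp3, at 0.08 to 0.10. Nr4a2 was closest to Irgm1, Atp6v0a1 and Gpx3, and Arc to Sertad3, Msc and Pgbd5. Ier2 was closest to Eml2, Slc25a39 and Repin1, Ier3 to Kctd11, Sema3f and Lrrc14, and Ier5 to Tex261, 4930402H24Rik and Tmem41a.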

How the data were processed

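RNA of 3 SRF KO and 3 WT iPSC replicates was sequenced with paired reads of 150 bp, and reads were cleaned of adaptors and poor sequence, per the labels' protocols. The deposited table holds raw counts for 24421 genes and 1146 transposable element subfamilies, judged from its whole-number values. The build mm10 and DESeq2 are named in the submitters' processing notes; the aligner, counting program, annotation and use of strand are not given in the sources used here. Columns were matched to samples by name.

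The whole table was fitted at once in R 4.3.3 with edgeR 4.0.16: filterByExpr (minimum count 10), TMM scaling, the quasi-likelihood test with group as the only term, and Benjamini-Hochberg adjustment over the 15611 entries tested (threshold 0.05). SEs are the log2 fold change over the square root of F. CPM uses the TMM-scaled library sizes. Exon lengths and positions are from GENCODE M21 (GRCm38, the assembly of mm10), which may not be the gene models the authors counted. A count of 0 allows up to 3 counts, or 0.0828 to 0.117 CPM; counting errors cover counting alone. Alternatives were DESeq2 1.42.0, limma 3.58.1 (voom), other scaling, no filter, gene entries alone, a replicate block and leaving out libraries. Scripts were tested on simulated data. The members and lists were chosen with earlier results of these data known. Named are Srf, the 10 genes, up to 4 genes per list and direction with the smallest p, and the closest patterns (5 for Egr1, 3 for each other called gene); cell type markers are given mostly by counts. Pou5f1, Nab2, Elk4, Creb1, Dusp6, Ddit3, Afp, Dcx and Bag3 were named after their values were seen.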

Additional observations from a re-analysis of the deposited data

How the results depend on the processing

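Of 140 comparisons of a gene's fold change with an alternative fit, 127 kept direction and call. Egr1, Egr2, Nr4a2 and Arc were called in each of the 14 alternative fits. The fold change of Nr4a1, never called, was between -0.068 and 0.143 when 1 library was left out and turned to -0.068 without WT replicate 2, to -0.01 without SRF KO replicate 1 and to -0.03 without both replicates numbered 2, an alternative chosen after seeing the data. The call of Ier2 was lost with limma-voom (-0.28) and with library totals alone (-0.26), and its values were between -0.43 and -0.20 when 1 library was left out. Those of Ier3 were between 0.24 and 0.44 and those of Ier5 between 0.34 and 0.46. The number of genes lower was 2 where a log2 fold change beyond 1 in size was also asked, and between 3 and 4 when 1 library was left out. The number higher was 0 with that further limit by edgeR, which lowers counts by construction, 1 at an adjusted p under 0.01, and between 1 and 3 when 1 library was left out (1 without SRF KO replicate 3). Of the lists, the median of the other immediate-early genes was between -0.001 and 0.099, that of the upstream regulators was between -0.023 and 0.027 and that of the stress genes between 0.045 and 0.14 when 1 library was left out. Relatives called higher then were between 1 and 2 and stress genes called lower between 1 and 2, or 1 with library totals alone. Nab2, never called, turned to 0.021 with library totals alone, to 0.151 without both replicates numbered 2, and was between -0.111 and 0.114 when 1 library was left out (0.114 without SRF KO replicate 2, 0.021 without WT replicate 2 and 0.017 without WT replicate 3). The cause of these changes was not tested. Replicate numbers are not taken as pairing, since no label says what they mark. The correlations of deviations of same-numbered libraries were 0.0435, 0.358 and 0.218. Those of libraries with different numbers were between -0.402 and 0.258. These values do not settle whether same-numbered libraries belong together. A fit with the replicate block changed the call of none of the 10 genes (Srf -3.12, Ier2 -0.28), and upstream regulators called lower went from 7 to 11, and 49.4% of entries were called in place of 41.1%. By DESeq2, run without the filter on low counts, the share was 26.0% of 21161 entries, a larger set than the 15611 behind the 41.1%. With edgeR and no filter it was 31.1% of 21161. When 1 library was left out, the share was between 30.4% (SRF KO replicate 1 left out) and 48.1% (WT replicate 2 left out). Depth limits Egr4, and to a lesser degree Egr2, Egr3 and Nr4a2.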
